A study of Mus musculus with 2 samples.

Results

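The cytoplasmic ribosomal protein genes encode the proteins that, with ribosomal RNA, build the small and the large subunit of the cytoplasmic ribosome. They were taken here as every gene whose symbol is Rps or Rpl followed by a number, with Rpsa, Rplp0, Rplp1, Rplp2 and Fau added and with pseudogene rows and the S6 kinases (Rps6k) left out. This gave 87 of the 32285 genes measured. Of these, 32 encode proteins of the small subunit, 43 encode proteins of the large subunit, and 3 form the stalk of the large subunit. Another 7 are paralogs of a standard subunit gene (Rpl22l1, Rps27l, Rpl39l, Rpl3l, Rpl10l, Rpl36al and Rps27rt), and 2 share the naming pattern but are not counted as subunits (Rps19bp1 and Rpl7l1). The cells were CD8 T cells of C57BL/6 mice, sorted as CD45+ TCRB+ CD8a+ from the 4th mammary fat pad and sequenced without culture or treatment as single cells from the 5-prime end of their RNA. The parous library came from a pool of at least 5 multiparous mice and the virgin library from a pool of at least 5 virgin mice. Each group being 1 library, there were no replicates, so parous and virgin cells were compared without a test. The intervals given are exact 95% intervals for counting error alone and say nothing of the spread between mice or preparations.

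Ribosomal protein mRNAs are among the most abundant mRNAs of a lymphocyte. Most of them begin with a terminal oligopyrimidine tract, a C at the cap followed by an unbroken run of C and T, through which the kinase complex mTORC1 and the cap-binding protein Larp1 set how strongly they are translated. A resting naive T cell keeps a small cytoplasm rich in these mRNAs but translates little, and activation by antigen is known to raise ribosome production through Myc and mTORC1.

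After a filter on genes, mitochondrial RNA and UMIs (unique molecular identifiers, which count captured RNA molecules), 2993 parous and 2502 virgin CD8 T cells entered, with 13288060 and 19944371 UMIs. The median cell had 4108 UMIs and 1528 genes in the parous library and 7002 UMIs and 2115 genes in the virgin library, so the libraries differed in depth per cell. Cd3e, a chain of the T cell receptor complex, had a UMI in 95.1% of the parous cells against 98.4% of the virgin ones, and Cd8b1 in 79.9% against 95.3%. For Cd4 these shares were 0.368% (parous) and 0.0799% (virgin). A cluster of 26 parous and 9 virgin cells was left out as other cells. Its leading genes included the epithelial keratins Krt8 and Krt7, and it carried 7 myeloid and 5 epithelial markers. Yet 65.7% of its cells, with median depths of 4152.5 and 6198 UMIs, also had a Cd3e UMI. Among the cells kept, the summed level of 10 myeloid markers was 126 CPM (UMIs per 1000000 UMIs) in parous and 115 in virgin cells, that of 8 epithelial markers 13.7 and 4.86 CPM, that of 6 fibroblast markers 8.13 and 22.4 CPM, and that of 6 adipocyte markers 59.6 and 30.4 CPM. Fabp4 made up most of the adipocyte sum, with 54.7 CPM in parous and 27.9 CPM in virgin cells. A single gene also made up most of the myeloid sum (110 and 92.5 CPM) and of the epithelial sum (12.4 and 4.56 CPM). The B cell markers summed to 88.5 CPM in parous and 120 CPM in virgin cells, and the gamma-delta T cell markers to 13.2 and 4.56 CPM. The neutrophil markers S100a8 and S100a9, the keratins Krt8 and Krt14 and the milk protein Wap were at 0 in both. The 2 libraries shared 18 cell barcodes, carried by 13 of the parous and 18 of the virgin CD8 T cells.

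The starts of 8 members from the low and the high end of the parous over virgin ratios, and of the paralog Rps27l, are shown because the 5-prime tract is the sequence feature for which the family is known. They are the sense strand from 40 bases before to 20 bases after the RefSeq start on GRCm38.p6. Capitals mark a C followed by at least 4 bases that are all C or T, where that C lies within 10 bases of the annotated start. Where several such Cs are present, the capitals begin at the C nearest the start. Pyrimidines just before it (Rps27 and Rps9) and further runs (Rpl39 and Rps27l) are then not marked. Rps27, Rps28, Rpl38 and Rpl39 were among the lowest in parous over virgin cells, and Rpl13, Rps12, Rpl18 and Rps9 among the highest.
Rps27: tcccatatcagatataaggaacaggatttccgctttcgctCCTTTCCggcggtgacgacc
Rps28: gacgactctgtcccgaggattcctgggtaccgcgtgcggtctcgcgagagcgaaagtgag
Rpl38: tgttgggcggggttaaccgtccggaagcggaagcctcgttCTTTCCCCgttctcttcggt
Rpl39: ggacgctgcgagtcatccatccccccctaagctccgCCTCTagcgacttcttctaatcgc
Rpl13: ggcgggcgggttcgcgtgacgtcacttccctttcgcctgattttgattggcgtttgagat
Rps12: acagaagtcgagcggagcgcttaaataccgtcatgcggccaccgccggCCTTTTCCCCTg
Rpl18: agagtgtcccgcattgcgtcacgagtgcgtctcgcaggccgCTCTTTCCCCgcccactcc
Rps9: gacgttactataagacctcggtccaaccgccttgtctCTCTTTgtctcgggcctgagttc
Rps27l: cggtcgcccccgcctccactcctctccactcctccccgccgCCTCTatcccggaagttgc
The windows lie at chr3:90213629-90213688 (Rps27, minus strand), chr17:33824543-33824602 (Rps28, minus), chr11:114668540-114668599 (Rpl38, plus), chrX:37085203-37085262 (Rpl39, minus), chr8:123102310-123102369 (Rpl13, plus), chr10:23787190-23787249 (Rps12, minus), chr7:45718031-45718090 (Rpl18, plus), chr7:3704001-3704060 (Rps9, plus) and chr9:66946046-66946105 (Rps27l, plus). Each spans the end of the promoter and the first bases of exon 1.

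The table of promoters held 67 of the 87 members. A run of this kind was present in 41 of them (61.2%), against 9297 of 27025 promoters of all genes (34.4%). On the opposite strand the run was found in 23.9% of the members and 38.5% of all promoters. Both the low and the high members shown above include starts with the run (Rps27, Rpl38 and Rpl39; Rps12, Rpl18 and Rps9) and a start without it (Rps28; Rpl13). No match says only that these letters are not near the annotated start, which can lie some bases away from the start that the cells use.

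Ribosomal protein transcripts were a large part of the captured RNA in both libraries. They accounted for 4412877 of 13288060 UMIs in parous cells, or 33.2%, and for 6255770 of 19944371 UMIs in virgin cells, or 31.4%. The log2 ratio of the shares, parous over virgin, was 0.082 (interval 0.081 to 0.084), a difference of 1.84 percentage points. The direction depended on how cells were weighted, since the median parous cell had a share of 31.0% and the median virgin cell 31.8%, a log2 ratio of -0.036. The spread between single cells was far wider than either difference: the 5th and 95th percentiles of the share per cell were 18.6% and 48.2% in parous cells and 15.5% and 47.2% in virgin cells. Small-subunit genes contributed 15.9% of parous and 14.8% of virgin UMIs, and large-subunit genes with the stalk 17.02% and 16.18%. The median cell held 1275 ribosomal protein UMIs and 2742 other UMIs in the parous library and 2322.5 and 4518 in the virgin library, so the shares rest on unequal depth. The mitochondrial share was 1.09% in parous and 1.17% in virgin cells, and the share of transcripts that overlap ribosomal RNA (Gm42418, Gm26917 and AY036118) was 0.830% and 1.33%. Their part in the difference was not tested.

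The share differed far more between T cell states than between the libraries. The states also differed in UMIs per cell, and the part of depth was not tested. Cells were clustered without any ribosomal protein gene, so the share was not used to form the 11 CD8 T cell clusters. The highest share was found in cluster 0, the naive or central memory-like cells, which carried all 10 markers of that state (among them Ccr7, the lymph node homing receptor, and Lef1 and Tcf7, transcription factors of resting T cells). There it was 44.9% in 471 parous cells and 41.3% in 980 virgin cells. Cluster 3, NK or innate-like cells led by genes such as Klra7 and Ikzf2, came next with 39.2% in 348 parous and 35.6% in 203 virgin cells. All CD8 T cells outside cluster 0, cluster 3 included, had 31.0% (parous) and 25.7% (virgin) when summed. Relative to them the naive or central memory-like cells were higher by 0.53 in log2 among parous cells and by 0.68 among virgin cells.

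**Figure D1:**
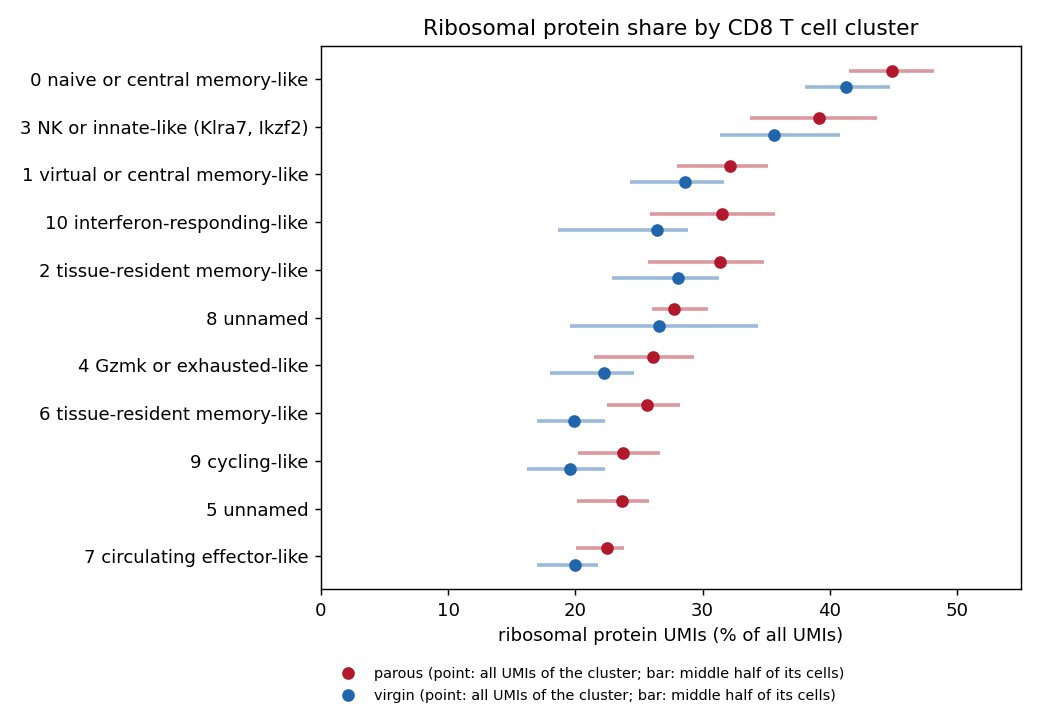
Ribosomal protein share of UMIs (x axis, % of all UMIs) in each CD8 T cell cluster, in order of the parous value. Points are the share of all UMIs of the cluster, bars the interquartile range over its cells, red for parous and blue for virgin; cluster 5 held 1 virgin cell and has no blue point. The parous point lies right of the virgin point in the 10 clusters filled by both libraries.

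The memory-like, interferon-responding and Gzmk or exhausted-like clusters had lower shares than these. The virtual or central memory-like cells of cluster 1, which express Eomes and Cxcr3, had a share of 32.1% in 555 parous and 28.6% in 454 virgin cells. The interferon-responding cells of cluster 10, led by Ifit3 and Rsad2, had 31.6% in 39 parous and 26.4% in 77 virgin cells. Tissue-resident memory-like cells, the T cells that settle in a tissue after an infection or other exposure, fell into 2 clusters with different shares. In cluster 2, led by Adgrg1, Car2 and Cdh1, the share was 31.4% in 639 parous cells and 28.1% in 39 virgin cells. In cluster 6, led by Mmp9, Ccr8 and P2rx7, it was 25.6% in 143 parous and 19.9% in 131 virgin cells. The Gzmk or exhausted-like cells of cluster 4 had 26.1% in 175 parous and 22.3% in 235 virgin cells.

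Shares were also low in cycling and effector cells, which in the virgin library lay close to the 19.9% of resident memory-like cluster 6. Cycling-like cells (cluster 9), marked by Mki67 and Top2a, had 23.8% in 64 parous and 19.6% in 150 virgin cells, although these were the cells with most RNA (medians of 8038 and 17758.5 UMIs). Circulating effector-like cells (cluster 7), marked by Cx3cr1 and S1pr5, had 22.5% in 83 parous and 20.003% in 165 virgin cells. Cluster 5, led by Gzmc, Fcer1g and Tyrobp, held 319 parous cells with 23.7% and 1 virgin cell, and it took no name because its 10 leading genes held none of the resident memory markers, of which it carried 12, while it also carried 8 NK or innate-like markers. Cluster 8, which took no name because it carried 1 marker of any type at most, held 157 parous cells with 27.8% and 67 virgin cells with 26.6%. Its cells had little RNA (medians of 1284 and 3320 UMIs), its leading genes included Fabp4 and AY036118, and transcripts overlapping ribosomal RNA made up 3.04% of its parous and 2.69% of its virgin UMIs. A Cd3e UMI was found in 71.0% of its cells, near the 65.7% of the cluster left out. At resolution 0.5 and without thinning, a Fabp4-led cluster with little RNA was named myeloid cell-like and left out. Without cluster 8 the log2 ratio of the summed share, parous over virgin, was 0.084. The rank order of the clusters was close in the 2 libraries, since no cluster moved by more than 2 places. Neighbours in that order overlapped in their cells: the interquartile range of the parous share was 41.5 to 48.2% in cluster 0 and 33.8 to 43.7% in cluster 3, and 20.03 to 23.8% in cluster 7 and 20.2 to 26.6% in cluster 9. The range of cluster 0 lay wholly above that of cluster 1 in each library (28.0 to 35.2% in parous cells; 38.1 to 44.8% against 24.3 to 31.7% in virgin cells).

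Within the same cluster the parous cells had the higher share every time. This held in all 10 clusters with at least 20 cells in each library, with log2 ratios from 0.06 in cluster 8 to 0.36 in cluster 6 (median 0.17), and cluster 0, the naive or central memory-like cells, had 0.12. The differences ran from 1.15 to 5.72 percentage points, and the interquartile ranges of parous and virgin cells still overlapped in 9 of the 10. The pooled ratio was smaller than most of these cluster ratios. The libraries also differed in their mix. Naive or central memory-like cells, with the highest share, made up 15.7% of the parous library against 39.2% of the virgin library. With both libraries weighted to the same mix of clusters the log2 ratio was 0.16, and without the naive or central memory-like cells it was 0.27. The virgin cells were deeper in each of these clusters, and transcripts overlapping ribosomal RNA made up, among cells of cluster 0, 0.878% in parous and 1.59% in virgin cells. B cell markers, of which Ighm was the most abundant, summed to 139 CPM in parous and 208 CPM in virgin naive or central memory-like cells. At resolution 1.2 cells of this name formed a cluster of 65 parous and 729 virgin cells and another of 381 and 238. Without thinning they formed clusters of 59 and 805 and of 451 and 163 cells. Cluster 0 may thus hold different mixes of cells in the libraries. The part of this mix, of depth or of free RNA in the difference was not tested.

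The share differed between cells of different depth and was highest in cells of middle depth. In the shallowest classes it did not climb with depth: it was 27.6% in parous cells of 1000 to 1500 UMIs and 26.4% in those of 1500 to 2000, and in virgin cells of 3000 to 4000 UMIs it was 25.2%. Among all parous CD8 T cells it was 26.8% in cells of 2000 to 3000 UMIs, 35.1% in cells of 4000 to 6000, 37.0% in cells of 6000 to 8000 and 29.8% in cells of 12000 to 20000. Among virgin cells it was 26.5%, 28.1%, 34.7% and 27.4% in the same classes, 36.4% in cells of 8000 to 12000 and 22.9% in cells above 20000 UMIs. The cells of 6000 to 8000 UMIs were thus 0.46 in log2 above those of 2000 to 3000 UMIs in the parous library and 0.39 in the virgin library. The makeup of the classes changed along the way. In the virgin library, naive or central memory-like cells were 25.5% of the cells of 2000 to 3000 UMIs and 53.2% of those of 6000 to 8000. Cycling-like cells were 40.6% of the parous cells of 12000 to 20000 UMIs and 66.7% of the virgin cells above 20000. Within the naive or central memory-like cells alone, the same step in depth moved the share by 0.21 among parous and 0.046 among virgin cells, to 45.8% against 39.5% and to 41.5% against 40.2%.

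**Figure D2:**
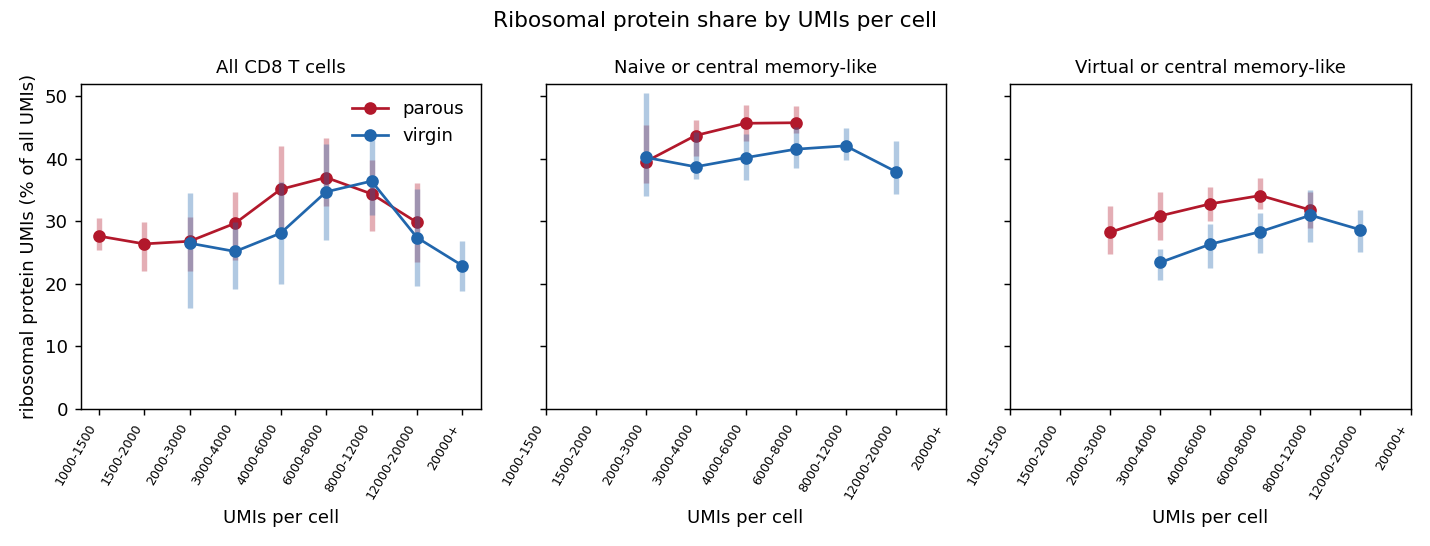
Ribosomal protein share (y axis, % of all UMIs) by class of UMIs per cell (x axis), for all CD8 T cells and for the naive or central memory-like and the virtual or central memory-like cells. Points are the share of all UMIs in the class, bars the interquartile range over cells, for classes of at least 20 cells; in the right panel the parous share is 28.3 to 34.1% and the virgin share 23.4 to 31.0%.

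Depth classes also served to set parous and virgin cells of like depth side by side. Of the 6 classes filled by at least 20 cells of each library, the parous share was higher in 5, and it was lower in cells of 8000 to 12000 UMIs (34.4% in parous and 36.4% in virgin cells). In that class 6.75% of parous against 52.9% of virgin cells were naive or central memory-like. Taking depth class and cluster together, 13 combinations were filled by both libraries, and the parous share was higher in 12 of them. The exception was the naive or central memory-like cells of 2000 to 3000 UMIs, with 39.5% in 42 parous and 40.2% in 25 virgin cells.

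Summed over all CD8 T cells, most members differed little between parous and virgin cells. Of the 87 genes, 85 reached the minimum of 10 UMIs in both libraries, and the other 2, Rpl10l and Rpl3l, had none. Their median log2 ratio, parous over virgin, was 0.10, and 58 were above and 27 below 0. Over the 11914 genes that passed this minimum the median was -0.13. Scaled to that median gene instead of to total UMIs, every log2 ratio is higher by 0.13, 69 of the 85 members lie above 0, and the 11 members between -0.13 and 0 change sign. No member was 1.5-fold lower and 1 was 1.5-fold higher (Rpl39l, at 54 UMIs in all), where 12.3% of all genes were lower and 6.54% higher. At a fold of 1.2, 7 members were higher and 6 lower (8.24% and 7.06%), against 15.1% higher and 35.4% lower among all genes. Scaled to the median gene, 34 members were 1.2-fold higher and 3 lower, against 23.4% and 24.1% of all genes, and at 1.5-fold 1 was higher and none lower (8.57% and 8.33% of all genes). As a share of ribosomal protein UMIs, 1 member was 1.2-fold higher and 11 lower, against 11.7% and 44% of all genes, and at 1.5-fold 1 was higher and 1 lower (5.13% and 16.5% of all genes). In the 10 clusters filled by both libraries, 46 members were above 0 in every cluster where they reached the minimum and 5 were below 0 in every one. That count is not given for all genes, whose median ran from -0.22 in cluster 2 to 0.086 in cluster 7. Within the naive or central memory-like cells, of 84 members tested none was 1.5-fold higher or lower (4.34% and 10.9% of all genes). There 11 were 1.2-fold higher and 6 lower (13.1% and 7.14%, against 15.1% and 32.6% of all genes), with a median of 0.16 where that of all genes was -0.10. The clusters were unlike in this. Members 1.2-fold higher ran from 7.32% in cluster 8 (31.4% of all genes) to 71.4% in cluster 6 (25.4% of all genes). In cluster 6, 60 of 84 members were 1.2-fold higher and 1 lower (1.19%, against 30.9% of all genes). At 1.5-fold, 11 were higher there and none lower (13.1%, against 9.34% and 12.5% of all genes).

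**Figure D3:**
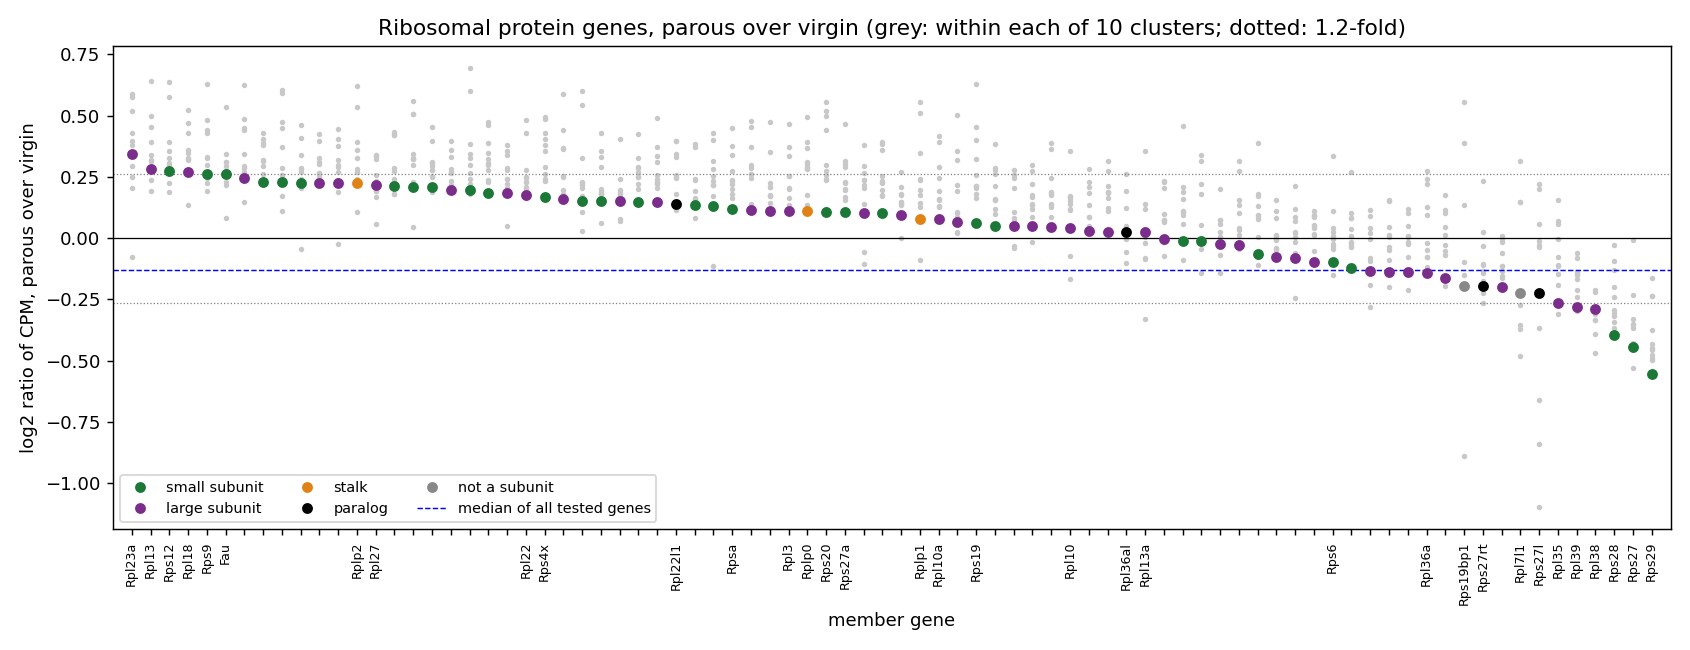
Log2 ratio of CPM, parous over virgin (y axis), for members with values in single clusters, in order from highest to lowest (x axis, with the names of those described in the text). Coloured points are all CD8 T cells, by the kind of gene, grey points the ratio within each of the 10 clusters filled by both libraries; Rps29, Rps27, Rps28, Rpl38 and Rpl39 at the right end have no grey point above 0.

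Among the small-subunit genes, 24 of 32 were above 0, with a median of 0.14. Rps12 had 3968 CPM in parous and 3279 CPM in virgin cells, a log2 ratio of 0.27 (interval 0.26 to 0.29), and Rps9 had 5269 and 4393 CPM (0.26). Fau, which encodes a ubiquitin-like protein fused to the subunit eS30, had 7682 CPM in parous and 6414 CPM in virgin cells (0.26). Rps27a, whose product is ubiquitin fused to a subunit, had 4736 and 4394 CPM (0.11). Rpsa, also known as the laminin receptor precursor, had 7062 and 6500 CPM (0.12), and Rps4x, on the X chromosome, had 5491 and 4883 CPM (0.17). Rps6, the subunit phosphorylated by the S6 kinases downstream of mTORC1, had 2204 CPM in parous and 2358 CPM in virgin cells (-0.10), and it is among those that change sign with the scaling. Summed over all CD8 T cells, these 7 genes were thus at most 1.21-fold apart. All of them except Rps6 were above 0 within each of the 10 clusters.

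The lowest ratios of the family were those of small-subunit genes, followed by the large-subunit genes Rpl38 and Rpl39. Rps29, which encodes a zinc-binding protein, had 61238 UMIs (4609 CPM) in parous and 135114 UMIs (6775 CPM) in virgin cells, a log2 ratio of -0.56 (interval -0.57 to -0.54). Rps27, another zinc-binding protein, had 3140 CPM in parous and 4275 CPM in virgin cells (-0.45, interval -0.46 to -0.43). Rps28 had 3994 and 5261 CPM (-0.40, interval -0.41 to -0.38). Each was lower in parous cells within all 10 clusters filled by both libraries. For Rps29 the cluster ratios ran from -0.50 to -0.16: in the naive or central memory-like cells it had 6785 CPM in parous and 9450 CPM in virgin cells, and in cycling-like cells 3116 and 3670 CPM. For Rps27 the cluster ratios ran from -0.53 to -0.01, with 1570 CPM in parous and 1582 CPM in virgin cycling-like cells.

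Among the large-subunit genes, 28 of 43 were above 0, with a median of 0.05. Rpl23a, whose protein lies at the exit of the peptide tunnel where the signal recognition particle docks, had 1020 CPM in parous and 804 CPM in virgin cells (0.34, interval 0.31 to 0.38), and was above 0 in 9 of 10 clusters. As 14 annotated pseudogenes are named after it, and 24 after Rps12, their counts are uncertain. Rpl13 had 8305 CPM in parous and 6832 CPM in virgin cells (0.28), and Rpl18 had 4565 and 3783 CPM (0.27), and both were above 0 in all 10 clusters. Rpl3, close to the site of peptide bond formation, had 3039 and 2816 CPM (0.11). Rpl10, which joins the large subunit late in its assembly, had 2924 and 2842 CPM (0.04), Rpl10a had 2851 and 2703 CPM (0.08), and Rpl13a, known for a role in silencing inflammatory mRNAs once released from the ribosome, had 3425 and 3369 CPM (0.02). These last values lie within a few percent of each other in parous and virgin cells. At the low end, Rpl38, whose loss in mice disturbs the axial skeleton, had 3347 CPM in parous and 4095 CPM in virgin cells (-0.29), Rpl39, a small protein that lines the peptide tunnel, had 4355 and 5285 CPM (-0.28), and Rpl35 had 1850 and 2223 CPM (-0.26). Rpl38 and Rpl39 were lower in parous cells in all 10 clusters and Rpl35 in 7 of 10.

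The stalk proteins recruit the translation factors to the ribosome, and all 3 of their genes were above 0. Rplp0, the base of the stalk, had 6493 CPM in parous and 6018 CPM in virgin cells (0.11). Rplp1 had 6364 and 6021 CPM (0.08), and Rplp2 had 4576 and 3919 CPM (0.22). Rplp0 and Rplp2 were above 0 in each of the 10 clusters and Rplp1 in 9.

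The 5 members below 0 in each of the 10 clusters were all short. Of the 12 tested members with a coding sequence of at most 300 bases, 11 were below 0 and 5 were 1.2-fold lower (Rps29, Rps27, Rps28, Rpl38 and Rpl39; 35.4% of all genes were), with a median of -0.21. The intervals of Rps21 (-0.01) and Rpl37a (-0.00) included 0, and Rpl41, with the shortest coding sequence, was lower in 5 and higher in 5 of 10 clusters. The exception was Rpl39l. Of the 19 members of over 300 and up to 400 coding bases 4 were below 0 (median 0.14), and of the 23 of over 400 and up to 500 bases also 4 (median 0.13). Other short genes had a higher median. Of 228 other genes with at most 300 coding bases, 98 were below 0, 36 were 1.2-fold lower and their median was 0.05, and of the 152 of them with at least 1000 UMIs 59 were below 0 (median 0.06). Over genes outside the family the medians ran the other way, down to -0.16 from 900 to 1500 coding bases. Coding length was looked at after the ratios had been seen. Leaving out the members of at most 300 coding bases gave a log2 ratio of the summed share of 0.13.

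**Figure D4:**
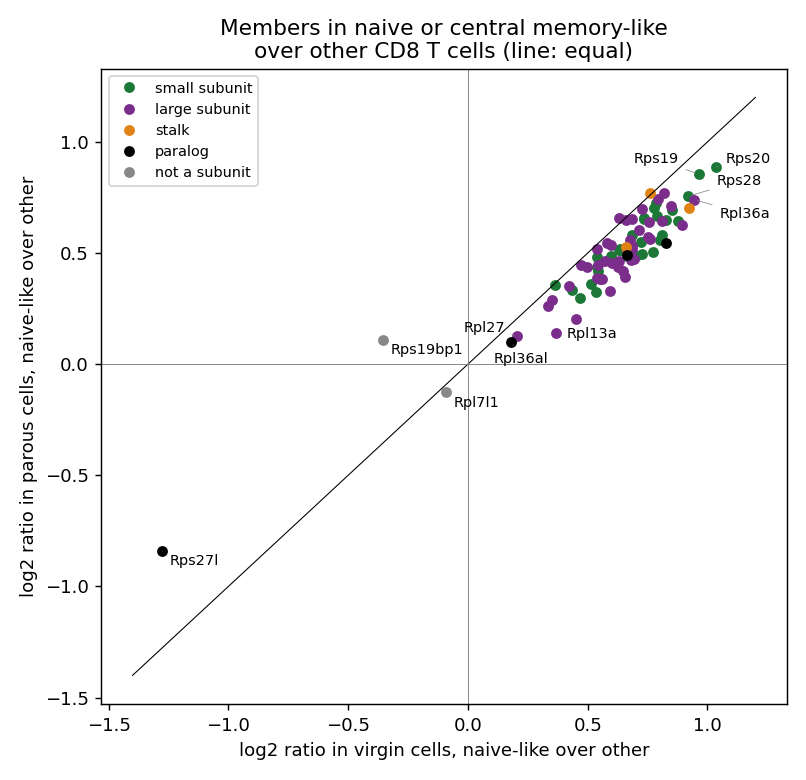
Log2 ratio of each member in naive or central memory-like cells over the other CD8 T cells, in parous cells (y axis) and in virgin cells (x axis), coloured by the kind of gene, with the line of equal values. Nearly all members lie between 0 and 1 on both axes and mostly below the line; Rps27l lies at -0.84 in parous and -1.28 in virgin cells.

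Nearly the whole family was higher in naive or central memory-like cells. With 84 members tested in each library, 77 were at least 1.2-fold higher there than in the other CD8 T cells in the parous library (91.7%, against 16.9% of all genes) and 79 in the virgin library (94.0%, against 19.1%). At 1.5-fold the counts were 25 of 84 in parous cells (29.8%, against 7.79% of all genes) and 56 of 84 in virgin cells (66.7%, against 10.2%). The member medians were 0.51 in parous and 0.66 in virgin cells, where those of all genes were -0.22 and -0.24. Naive or central memory-like cells and the others of 1 library share that library's preparation, but the 2 libraries are separate pools of mice.

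The members differed in how far they followed. Rps20 was highest, with 10099 CPM in naive or central memory-like and 5455 CPM in other parous cells, and 8535 and 4160 CPM in virgin cells (log2 ratios of 0.89 and 1.04). Rps19, mutated in the human bone marrow failure Diamond-Blackfan anaemia, had 6655 CPM in naive or central memory-like and 3678 CPM in other parous cells, and 5769 and 2959 CPM in virgin cells (0.86 and 0.96). Rpl36a (0.74 in parous and 0.94 in virgin cells), Rps28 (0.76 and 0.92) and Rplp1 (0.70 and 0.92) followed. Among standard subunits the smallest ratios were those of Rpl27 (0.13 in parous and 0.21 in virgin cells) and Rpl13a (0.14 and 0.37), which also exceeded equal levels in both libraries. Rpl7l1, at 463 parous and 811 virgin UMIs, had -0.13 and -0.09, and Rps19bp1, at 252 and 433 UMIs, had 0.11 and -0.35. Rps27l was the 1 member at least 1.5-fold lower in naive or central memory-like cells, in both libraries (22.1% of all genes in parous and 25.5% in virgin cells). At 1.2-fold it was joined by Rps19bp1 in the virgin library (46.4% of all genes in parous and 48.5% in virgin cells).

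Paralogs that stand in for a standard subunit did not all follow their partner. Rps27l, a target of p53 whose protein differs from that of Rps27 at few residues, had 113 CPM in parous and 132 CPM in virgin cells (-0.22). In cycling-like cells it had 195 CPM in parous and 350 CPM in virgin cells, and in naive or central memory-like cells 67.6 and 69.2 CPM. Its share of the UMIs of the pair was 11.03% (interval 9.15 to 13.2%) in parous and 18.1% (17.1 to 19.1%) in virgin cycling-like cells, against 1.53% (1.29 to 1.80%) and 1.16% (1.06 to 1.27%) in naive or central memory-like cells. In the remaining named clusters that share was between 2.09 and 4.98%. Rps27 itself was lowest in the cycling-like cells, so both genes moved the share.

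**Figure D5:**
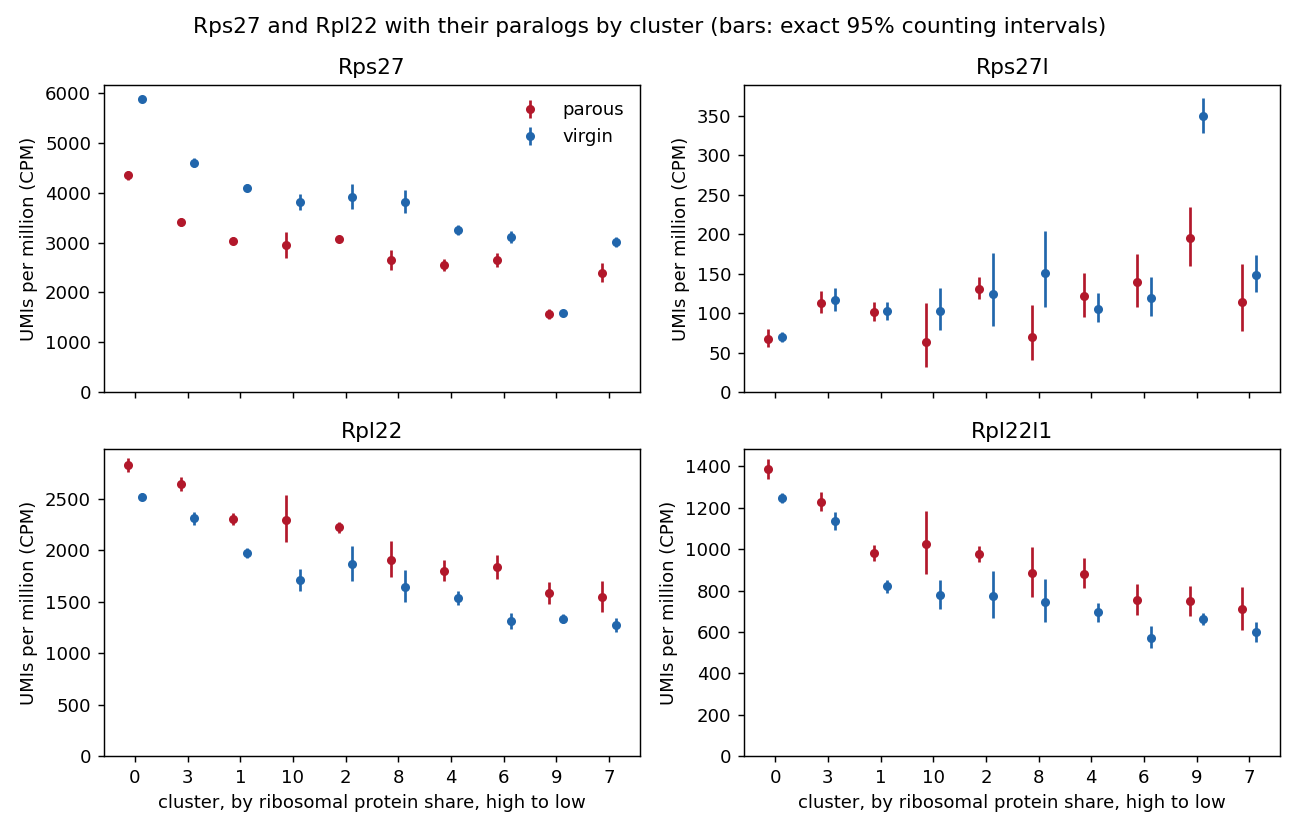
Levels (y axes, CPM) of Rps27, Rps27l, Rpl22 and Rpl22l1 in each cluster filled by both libraries, in order of the ribosomal protein share (x axes); red is parous, blue virgin, and bars are exact 95% counting intervals. Rps27 and Rpl22 mostly fall along the order, but Rps27 is lowest in cluster 9, the cycling-like cells, and higher again in cluster 7. Rpl22l1 follows Rpl22, and Rps27l is highest in cluster 9.

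Rpl22l1 kept step with Rpl22, the RNA-binding subunit needed for alpha-beta T cell development in mice. Rpl22 had 2271 CPM in parous and 2011 CPM in virgin cells (0.18), and Rpl22l1 had 1051 and 955 CPM (0.14). The share of Rpl22l1 in the pair was 31.6% in parous and 32.2% in virgin cells and stayed between 29.1 and 33.1% in every cluster filled by both libraries. Rpl36al did not keep step with Rpl36a, whose protein it matches almost completely, so that reads may have been split between them. Rpl36al had 762 CPM in parous and 749 CPM in virgin cells (0.03), and Rpl36a had 1440 and 1591 CPM (-0.14). The share of Rpl36al in the pair was 27.1% in parous and 26.1% in virgin naive or central memory-like cells, and 55.3% and 51.6% in circulating effector-like cells. Its own level was nearly flat, with 808 and 810 CPM in the first and 797 and 698 CPM in the second, while Rpl36a had 2171 and 2289 CPM in the first and 645 and 656 CPM in the second. Rps27rt, a retrotransposed copy of Rps27, had 1335 CPM in parous and 1530 CPM in virgin cells (-0.20). Its sequence is close to that of its parent, so reads may have been split between the 2 genes.

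Rpl39l, a paralog of Rpl39 enriched in testis in mice, had 42 UMIs (3.16 CPM) in 28 parous cells and 12 UMIs (0.602 CPM) in 8 virgin cells, a log2 ratio of 2.35 (interval 1.44 to 3.45). Of the 42 parous UMIs, 28 came from 20 cells of cluster 1. With so few UMIs, and with a coding sequence close to that of Rpl39, the difference rests on few cells and is uncertain. The 2 genes that are not subunits were low in both libraries: Rpl7l1 had 34.8 CPM in parous and 40.7 CPM in virgin cells (-0.22, interval -0.39 to -0.06), and Rps19bp1 had 19.0 and 21.7 CPM (-0.19, interval -0.42 to 0.03). Rpl10l and Rpl3l, known from testis and from striated muscle, had 0 UMIs in each library, where 3 UMIs would be 0.226 CPM in parous and 0.150 CPM in virgin cells. Counts of several standard members are uncertain in the same way, since 61 of the 87 genes have at least 1 annotated pseudogene and 300 such pseudogenes are annotated in all. The rows of named pseudogenes left out of the family held 0.0435% of parous and 0.0414% of virgin UMIs.

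Other genes of the translation machinery were compared from lists. Of 24 translation factors and partners listed as carrying the pyrimidine tract, none was 1.5-fold higher or lower in parous cells (6.54% and 12.3% of all genes), and the median log2 ratio was -0.05. Eef1a1, which brings tRNAs to the ribosome, had 8572 CPM in parous and 8765 CPM in virgin cells (-0.03). In naive or central memory-like over other cells the list had a median of 0.20 in parous and 0.32 in virgin cells, with 11 and 14 of the 24 at least 1.2-fold higher (16.9% and 19.1% of all genes). Of 55 ribosome biogenesis genes, which process ribosomal RNA in the nucleolus, 5 were 1.5-fold lower in parous cells (Nop2, Wdr12, Nop16, Mybbp1a and Polr1e, at -0.60 to -0.74) and none higher, a share of lower genes near the 12.3% of all genes, and the median was -0.17. In naive or central memory-like over other cells their median was 0.04 in parous and 0.03 in virgin cells. Of 78 mitochondrial ribosomal proteins 3 were 1.5-fold lower (Mrps2, Mrps27 and Mrps18b) and none higher, against 12.3% and 6.54% of all genes, with a median of -0.14, and in naive or central memory-like over other cells their medians were -0.29 and -0.34, below the -0.22 and -0.24 of all genes. The 13 mitochondrially encoded genes, followed as a sign of RNA quality, had a median of -0.16, with 1 lower (mt-Nd6) and none higher, and medians of 0.40 in parous and 0.42 in virgin cells for naive or central memory-like over other cells.

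Of 25 tested genes of cap-dependent initiation and mTORC1, 2 were 1.5-fold higher and 1 lower in parous cells, against 6.54% and 12.3% of all genes, with a median of -0.12. These counts are too small to set the list apart from all genes. The lower gene was Myc, the transcription factor that drives ribosome production. It had 521 UMIs (39.2 CPM) in parous and 2050 UMIs (102.8 CPM) in virgin cells, a log2 ratio of -1.39, and -1.42 within the naive or central memory-like cells. The higher genes were Mxi1 and Mxd4, which compete with Myc for its partner Max: Mxi1 had 49.7 CPM in parous and 22.9 CPM in virgin cells (1.12), and Mxd4 had 84.8 and 53.0 CPM (0.68). Larp1, which binds the pyrimidine tract at the cap, had 48.8 and 45.7 CPM (0.10). In naive or central memory-like over other cells the medians of this list were -0.22 in parous and -0.28 in virgin cells, near those of all genes.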

How the data were processed

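Single-cell 5-prime RNA libraries of sorted CD8 T cells were used, 1 parous and 1 virgin, each from a pool of mice. The authors deposited UMI counts that were not normalized. Per the file headers, Cell Ranger 7.0.0 made them; mm10 is the build in the submitters' processing notes, where R 4.4.2 and Seurat stand with no role stated. How barcodes were called as cells, how reads that match several genes were treated and how fully the libraries were sequenced are not given in the sources used here.

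A cell needed 1000 UMIs, 500 genes and a mitochondrial share under 10%, which left out 1908 of 4927 parous and 15 of 2526 virgin barcodes. No doublet caller was run. For clustering (scanpy 1.11.5, leidenalg 0.10.2, Python 3.11.15), with virgin UMIs thinned to 58.7%, the settings were resolution 0.8, 15 neighbours, 30 components and 2000 variable genes, none of them mitochondrial, ribosomal, immunoglobulin or T cell receptor genes. A cluster was named from at least 3 listed markers, each at least 2-fold over all cells outside it and present in 10% of its own, with at least 1 among its 10 leading genes. Names are rebuilt here and may differ from those of the study.

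UMIs were summed over the cells of a library or cluster. Log2 ratios of CPM had 0.5 added to each count and needed 10 UMIs on each side; a gene was called at 1.5-fold or 1.2-fold. Intervals are Clopper-Pearson for shares and exact conditional binomial for ratios. On simulated Poisson counts of 12180 genes, with 200 changed, parous over virgin, 95.9% of the intervals included the ratio that was put in. Positions and coding lengths come from GENCODE on GRCm38, promoters from RefSeq on GRCm38.p6. Members named were the 8 highest and 8 lowest ratios, the 5 highest and 5 lowest of naive or central memory-like over other cells, all paralogs and a listed set of subunits; of other lists, genes 1.5-fold apart, with a few single genes (Eef1a1, Larp1) added after their values were seen. A few genes that this rule or a marker list would name are not reported here. The members, lists and named set were chosen with earlier results of these data known. Alternatives changed the cell filter, the clustering, the depth, the denominator, how cells were weighted or chosen, the scaling, the count minimum and the member list.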

Additional observations from a re-analysis of the deposited data

Results flagged for a closer look

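Barcodes left out by the cell filter also carried ribosomal protein UMIs. In the 1908 parous barcodes left out, of which 1905 had under 1000 UMIs, they made up 27.4% of 1217957 UMIs (interval 27.3 to 27.4%), against 16.01% of 12383 UMIs (interval 15.4 to 16.7%) in the 15 virgin barcodes left out. The share was looked at here because it lies outside the cells compared. The parous barcodes left out had a median of 600 UMIs, and 915 of the 1908 had a Cd3e UMI. Their share lies below the 33.2% of the parous cells kept and close to the 27.8% of the parous cells with little RNA in cluster 8.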

How the results depend on the processing

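No paired analysis was possible because each group is 1 library, and no library could be left out in turn. The log2 ratio of the ribosomal protein share, parous over virgin, was 0.08 and kept its direction under all alternatives run except the median over cells, where it was -0.036. It was 0.019 with the mean over cells, 0.074 without mitochondrial and ribosomal RNA-overlapping transcripts in the denominator, 0.061 without a cell filter and 0.088 with a stricter one. It was 0.15 at the same spread of UMIs per cell, 0.16 at the same mix of clusters and 0.16 without clusters almost wholly of 1 library. Of 2 alternatives added after seeing the data, it was 0.27 without naive or central memory-like cells and 0.13 without members of at most 300 coding bases. Members 1.2-fold higher numbered 7, and 34 under median-of-ratios scaling, 1 as a share of ribosomal protein UMIs, 22 without clusters almost wholly of 1 library, 11 within naive or central memory-like cells and 21 at the same mix of clusters. Members 1.2-fold lower numbered 6, and 3 and 11 under the first 2 of these. Members 1.5-fold higher numbered 1, and 0 within naive or central memory-like cells and with virgin UMIs thinned, where Rpl39l had under 10 UMIs; 1.5-fold lower numbered 0, and 1 (Rps29) as a share of ribosomal protein UMIs. Naive or central memory-like over other cells was 0.53 in parous cells, and 0.54 at resolution 0.5, at resolution 1.2 and with the other denominator, 0.55 without thinning and 0.56 at the same spread of UMIs. In virgin cells it was 0.68, and 0.69 at resolution 1.2, 0.68 without thinning, 0.69 with the other denominator and 0.64 at the same spread. Within naive or central memory-like cells, parous over virgin was 0.12, and 0.12 at resolution 1.2, 0.11 with the other denominator and 0.15 at the same spread. The step from 2000 to 3000 up to 6000 to 8000 UMIs was 0.46 in parous and 0.39 in virgin cells, and 0.21 and 0.046 within naive or central memory-like cells. The count of clusters with a higher parous share, 10 of 10, was 8 of 8 at resolution 0.5 and in cells of 3000 to 8000 UMIs, 13 of 13 at resolution 1.2 and 10 of 10 under 4 other alternatives, all added after seeing the data. Of 257 values of single named members under alternatives, 100 stayed within their counting interval. The causes of these moves were not tested. Low counts limit Rpl39l, Rps19bp1, Rpl7l1 and Rps27l, and Rpl10l and Rpl3l had no UMI. The spread between replicates is unknown for every member.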

Other observations

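The Rpl39l UMIs of the parous library came mostly from cells with the same T cell receptor beta segment, a pattern chosen after the values were seen. A Trbv segment was assigned to a cell with at least 2 of its UMIs and most of the cell's Trbv UMIs. Of the 28 parous cells with an Rpl39l UMI, 25 had a segment assigned, and in 20 of these it was Trbv13-3. An Rpl39l UMI was found in 20 of 191 parous cells with Trbv13-3 (10.5%, interval 6.51 to 15.7%) and in 5 of 2046 parous cells with another segment (0.244%, interval 0.0794 to 0.569%). In cluster 1 it was found in 16 of 62 parous cells with Trbv13-3 (25.8%, interval 15.5 to 38.5%) and in 2 of 390 with another segment. In the virgin library it was found in 0 of 107 cells with Trbv13-3, which allows a share of cells with a UMI of up to 3.39% for counting error only, and in 5 of 2041 cells with another segment (0.245%). These intervals take each cell as a separate draw. How many clones or mice the cells with Trbv13-3 came from was not tested. The median depth of the parous cells with an Rpl39l UMI was 4377 UMIs, against 4108 over all parous CD8 T cells. The 16 parous cells of cluster 1 with both had a ribosomal protein share of 29.3%, against 32.2% in the other 539. Their median depth was lower, with 3877 UMIs against 4380, and the part of depth was not tested.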
